A study of Mus musculus with 5 samples.

Results

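The oxidative phosphorylation subunit genes are the nuclear genes for the proteins of complexes I to V of the inner mitochondrial membrane. They were taken by symbol from the annotation of the array (names starting with Nduf followed by a, b, c, s or v and a digit, Sdha to Sdhd, Uqcr, Cox4 to Cox8 followed by a, b or c, and Atp5), which gave 79 of the 18193 genes with a probe set. Of these, 35 belong by name to complex I, 4 to complex II, 8 to complex III, 15 to complex IV and 17 to complex V. A probe set is a group of short probes against 1 transcript, and the one with the highest mean stood for its gene. RNA came from 32D cells, which are mouse myeloid progenitors whose growth usually needs interleukin-3. The cells had been stably transduced with a retroviral FLT3-ITD construct, that is, a FLT3 receptor tyrosine kinase with an internal tandem duplication that makes it signal without its ligand. The 5 groups are named by construct, ITD78, ITD598, ITD602, ITD611 and ITD613, and each was measured on 1 Affymetrix mouse array. The labels do not say what the numbers of the constructs mean, nor whether a line is 1 clone. All 5 shared 3 h of starvation and 1 h of exposure to a tyrosine kinase inhibitor that the labels do not name.

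The respiratory chain passes electrons from NADH (complex I) and succinate (complex II) through ubiquinone to complex III, then through cytochrome c to complex IV, which reduces oxygen. Complexes I, III and IV pump protons, and complex V, the ATP synthase, uses the gradient to make ATP. Most subunits are encoded in the nucleus and a few in mitochondrial DNA, and myeloid progenitors and leukaemic cells use this pathway beside glycolysis.

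With 1 array per construct no difference could be tested, and no p-value is given. Values are log2 RMA values made by the authors, given below in the order ITD78, ITD598, ITD602, ITD611 and ITD613. The difference of an array is its value minus the mean of the other 4 arrays. A gene passed the low-value filter where its highest value reached 2.75, the 60th percentile of all values, which 9621 genes did, among them 75 of the 79 subunit genes. The array medians over these genes ran from 5.55 (ITD78) to 5.65 (ITD613), a gap of similar size to many differences described here, so directions were also read after each array had been centred on its median. The title of the ITD602 array carries another date-like string than the other titles. The labels do not say what it marks, and whatever it marks cannot be told apart from the construct. Of 11 myeloid progenitor markers, 8 reached the filter value on every array, while 0 of 3 lymphoid and 0 of 3 fibroblast markers did. The epithelial marker Epcam read between 2.87 and 3.29, and the other 3 epithelial markers stayed below the filter value. The 4 erythroid markers (Klf1, Gata1 and the embryonic globins Hba-x and Hbb-y) were above it on every array, and their mean level ran from 7.07 on ITD602 to 10.59 on ITD613. The mean of the myeloid markers ran the other way, from 5.47 on ITD602 to 4.30 on ITD613. Whether the makeup of the cultures has a part in the differences below was not tested.

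The subunit genes differed little between the 5 constructs. The median range, highest minus lowest of the 5 arrays, was 0.26 (log2) over the 75 genes, against 0.43 over all 9621. A range of at least 0.5 (1.41-fold) was seen in 8 of the 75 subunit genes and in 41.1% of all genes. The 8 were Ndufa1, Ndufa3, Ndufb1, Ndufb2, Ndufb6, Uqcrc1, Cox7c and Cox8b. Genes with strong signals, as most subunit genes were, varied less in general. Among genes with a mean level of at least 8, 5 of 65 subunit genes reached that range, against 29.8% of all such genes. The subunit genes were still brighter there, with a median level of 9.64 against 8.89. The ITD613 array weighed most in the ranges above. Without it, 2 of 75 subunit genes (2.67%) reached 0.5, Ndufb6 and Cox8b, against 18.1% of all genes. The median range was then 0.20 against 0.28. Cox8b read 2.35 to 2.89, in the range where many probe sets share 1 value (up to 3.74). The low ITD602 value of Ndufb6 (-0.40) was not shared by its second probe set (0.11). With the mean of the probe sets of each gene, 5 of 74 subunit genes reached 0.5 over the 5 arrays, against 33.6% of all genes. The median range was 0.28 for complex I, 0.28 for complex II, 0.20 for complex III, 0.30 for complex IV and 0.22 for complex V. No subunit gene lay 1 (2-fold) or more beyond the nearest other array on any array, as 2.41% of all genes did.

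**Figure D1:**
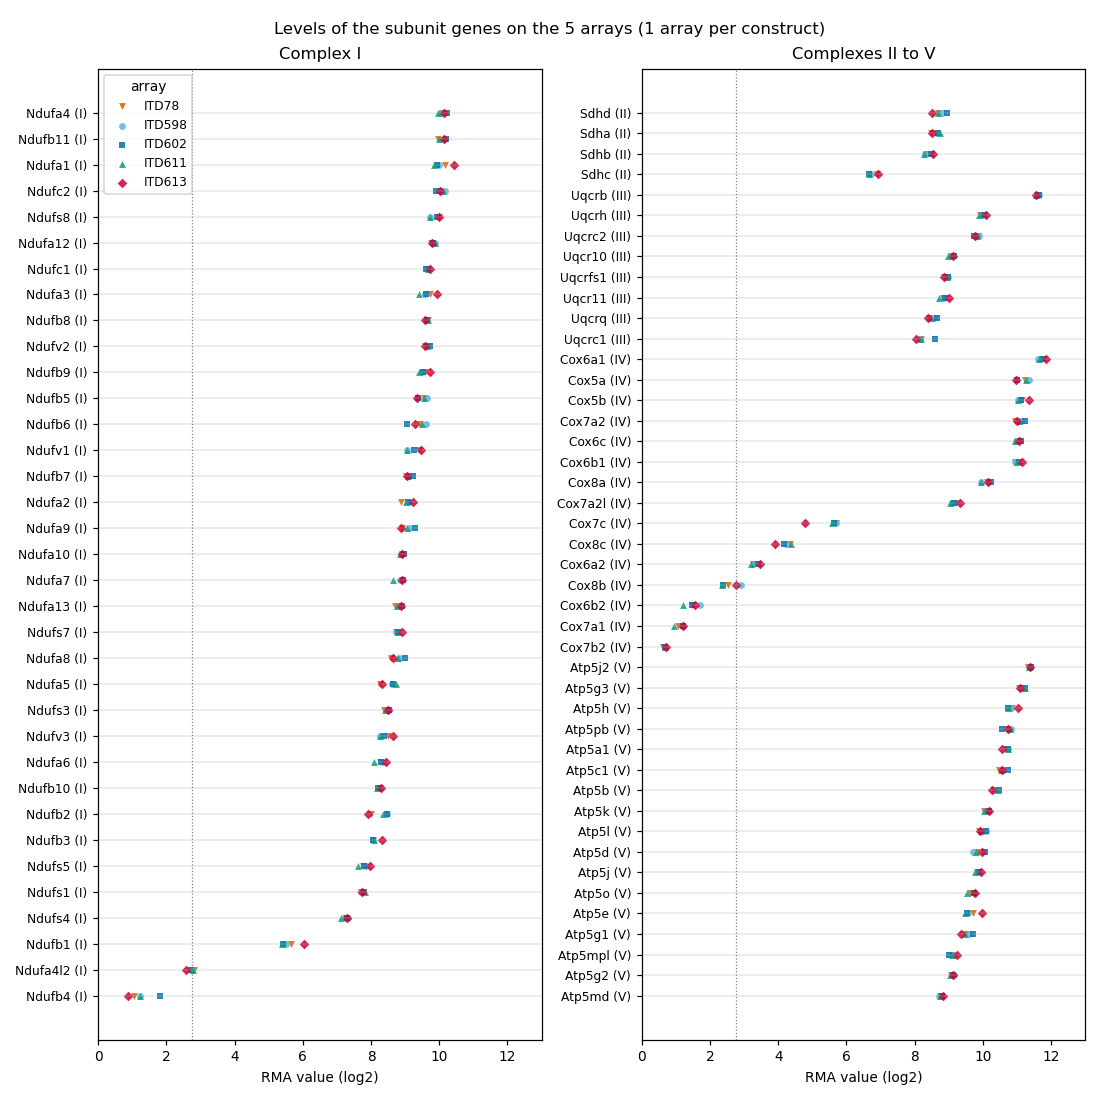
RMA values (log2, x axis) of all 79 subunit genes on the 5 arrays, 1 symbol per array, with the complex in brackets and the low-value filter of 2.75 as a dotted line. The symbols of most genes overlap; Cox7c on ITD613 (4.78) and Ndufb1 on ITD613 (6.02) stand off from the other arrays.

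**Figure D2:**
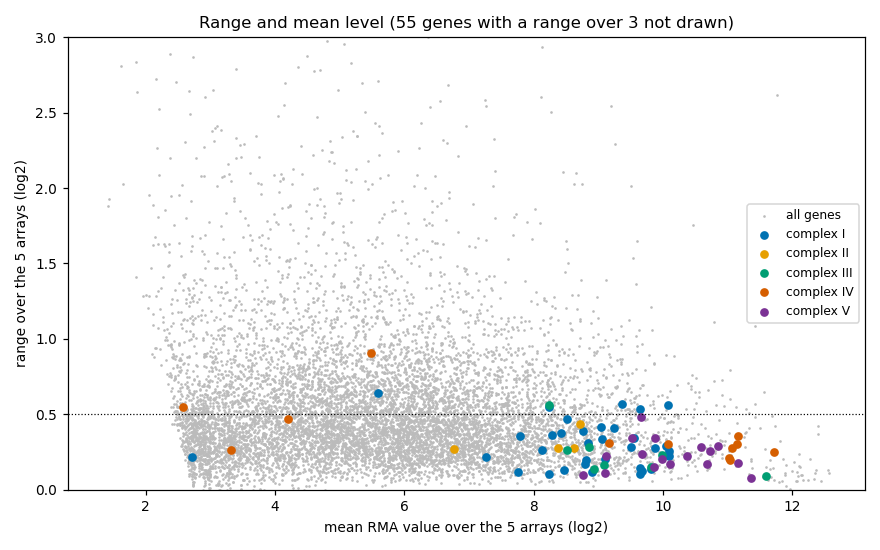
Range over the 5 arrays against mean level (both log2) for all genes passing the filter (grey) and the 75 subunit genes, coloured by complex; 55 genes with a range over 3 are not drawn. At a mean level of at least 8 the median range of the subunit genes was 0.26, against 0.36 for all genes. Of the 75, 8 lie above the dotted line at 0.5, among them Cox7c, Ndufb1 and Cox8b at lower mean levels (5.48, 5.59 and 2.58).

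Promoter sequences are shown for 4 members, each with a match to at least 1 of the motifs named below. They are the brightest member (Cox6a1) and a complex III member with matches to 2 motifs (Uqcr11). The others are a complex V (Atp5h) and a complex I member (Ndufa1) whose own values were highest on ITD613. Atp5e and Ndufb1 had larger differences on ITD613 in these complexes (0.39 and 0.54, against 0.24 and 0.43). RefSeq promoters of the build GRCm38.p6, 250 bases before and 50 after the start, were matched for 66 of the 79 genes, taking the first listed start. They were searched on both strands for GCATGCG, a part of the site of nuclear respiratory factor 1 (NRF1), then for CGGAAGT, which is bound by ETS factors such as GABP, and then for ATGGCGG, a part of the YY1 site. These factors are known regulators of respiratory chain genes. The NRF1 letters were in 13.6% of the 66 promoters, in 7.29% of the promoters of genes that passed the filter and in 3.64% of all 27025 promoters. The ETS letters were in 16.7%, 15.3% and 6.59%, and the YY1 letters in 12.1%, 9.39% and 4.19%. At least 1 of the 3 was in 26 member promoters (39.4%), against 28.2% for genes passing the filter. The promoters of Cox7c, Ndufb1 and Atp5e, which are not shown, held none of the 3. Below are the 250 bases before the start, 5′ to 3′, with matches in capitals. They lie at chr5:115348959-115349208 (Cox6a1), chr10:80406822-80407071 (Uqcr11), chr11:115419920-115420169 (Atp5h) and chrX:37191239-37191488 (Ndufa1), all on the minus strand.
Cox6a1: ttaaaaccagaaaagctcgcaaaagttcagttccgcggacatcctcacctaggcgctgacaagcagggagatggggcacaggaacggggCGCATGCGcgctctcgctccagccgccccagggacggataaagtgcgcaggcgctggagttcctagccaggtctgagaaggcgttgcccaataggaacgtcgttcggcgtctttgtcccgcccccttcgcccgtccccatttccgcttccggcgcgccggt
Uqcr11: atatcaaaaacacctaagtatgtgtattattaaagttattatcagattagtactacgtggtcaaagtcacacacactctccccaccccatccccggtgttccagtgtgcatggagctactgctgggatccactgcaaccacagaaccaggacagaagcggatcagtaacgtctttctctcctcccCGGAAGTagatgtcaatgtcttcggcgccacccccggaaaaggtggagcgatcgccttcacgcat
Atp5h: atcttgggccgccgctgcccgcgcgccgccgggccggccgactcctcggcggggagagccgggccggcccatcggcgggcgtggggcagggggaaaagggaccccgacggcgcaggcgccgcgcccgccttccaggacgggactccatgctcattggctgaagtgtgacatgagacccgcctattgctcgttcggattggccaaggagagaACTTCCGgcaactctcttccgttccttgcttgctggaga
Ndufa1: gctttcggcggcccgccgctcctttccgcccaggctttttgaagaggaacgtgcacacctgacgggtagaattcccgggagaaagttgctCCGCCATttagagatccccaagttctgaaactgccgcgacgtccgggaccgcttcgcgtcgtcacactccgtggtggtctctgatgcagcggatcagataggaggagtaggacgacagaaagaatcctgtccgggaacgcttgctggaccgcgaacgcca
In Cox6a1 the NRF1 letters match on both strands, overlapping each other. Uqcr11 has the ETS letters, and an NRF1 match that crosses its start is not printed. Atp5h has the ETS letters and Ndufa1 the YY1 letters, both on the opposite strand. The median range was 0.27 for the 9 members with the NRF1 letters that passed the filter and 0.28 for the 53 without. It was 0.28 for both the 11 with and the 51 without the ETS letters, and 0.30 and 0.28 for the 8 with and 54 without the YY1 letters. The ranges were thus much alike with and without each motif. The median difference on ITD613 was 0.14 with and 0.05 without the ETS letters, and -0.05 with and 0.06 without the YY1 letters. For the NRF1 letters it was 0.10 and 0.06. Ndufa1 (0.43 on ITD613) lay on the other side of 0 from the median of the members with the YY1 letters. These differences were not tested.

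Complex I, the NADH dehydrogenase, had 34 of its 35 genes above the filter, and none of its medians left the interval from -0.05 to 0.06. The medians were -0.03, 0.01, 0.01, -0.05 and 0.06 in array order. Those of ITD78, ITD602 and ITD613 changed sign with centred arrays (0.03, -0.01 and -0.02). Its members went in opposite directions on ITD613. Ndufb1, a small membrane arm subunit, read 5.64, 5.52, 5.41, 5.38 and 6.02, a difference of 0.54 on ITD613, or 0.46 with centred arrays, and it has 1 probe set. Ndufa1, an X-linked subunit of the membrane arm, read 10.17, 10.00, 9.94, 9.86 and 10.42. Ndufa3, another accessory subunit, read 9.71, 9.59, 9.61, 9.40 and 9.94. These 3 genes were highest on ITD613, second highest on ITD78 and lowest on ITD611.

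Ndufb2, an accessory subunit of the membrane arm, did the opposite, reading 8.01, 8.45, 8.45, 8.34 and 7.91. It was low on ITD613 (-0.41) and ITD78 (-0.28). Ndufb6, a membrane arm subunit, stood out on ITD602 instead, at 9.43, 9.62, 9.05, 9.48 and 9.28, but its second probe set did not share this. The 6 core subunits, which carry the flavin and iron-sulphur centres or bind ubiquinone, differed little. The flavoprotein Ndufv1, named here after its values were seen, had the widest range of them (0.41), reading 9.40, 9.05, 9.25, 9.06 and 9.46. The ranges of the other 5 (Ndufv2, Ndufs1, Ndufs3, Ndufs7 and Ndufs8) lay between 0.12 and 0.28. Other accessory subunits, chosen after their values were seen, differed in opposite ways. Ndufv3, a small subunit of the NADH-binding part, read 8.51, 8.27, 8.37, 8.27 and 8.65, and Ndufb9, a membrane arm subunit, read 9.57, 9.50, 9.53, 9.39 and 9.73, both highest on ITD613. Ndufa5, a matrix arm subunit, read 8.27, 8.62, 8.65, 8.74 and 8.32, low on ITD78 and ITD613. Its second probe set was lower on ITD78 as well (-0.15), but lay at -0.02 on ITD613, against -0.24 for the one used. Ndufa9, near the ubiquinone site, read 8.91, 9.10, 9.29, 9.05 and 8.87, low on ITD78 and ITD613 and highest on ITD602. Ndufb3, which lies in the membrane arm, read 8.06 on each of ITD78, ITD598 and ITD602, 8.09 on ITD611 and 8.33 on ITD613.

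Ndufa4l2, a paralogue induced by hypoxia in many cells, read 2.59 to 2.80, in the range where many probe sets share 1 value (up to 3.74). Ndufa4, counted here by name, is now known as a complex IV subunit and read 9.96 to 10.22. Ndufb4 was the 1 member below the filter (0.86 to 1.82), on the probe set that names it alone. Of 9 probe sets annotated with several symbols, all left out of the counts, 2 name Ndufb4 together with its copies, and these read 8.41 to 8.81.

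Complex II, succinate dehydrogenase, which also works in the TCA cycle, split on ITD613. Sdha, the flavoprotein, read 8.48, 8.66, 8.69, 8.76 and 8.52, and Sdhd, a membrane anchor, read 8.67, 8.80, 8.94, 8.70 and 8.50. Sdhb, the iron-sulphur protein, read 8.32, 8.30, 8.48, 8.27 and 8.55, and Sdhc, the other anchor, read 6.88, 6.72, 6.65, 6.67 and 6.92. Sdhb and Sdhc were thus highest on ITD613, Sdhd was lowest there, and Sdha was second lowest. Sdhc and Sdhd, which together hold the haem, differed in opposite directions on ITD613, by 0.19 and -0.28. The second probe set of Sdha went the other way on ITD613 (0.31 against -0.13). That of Sdhd was lower there as well (-0.40), but that of Sdhc was at -0.01, so its higher value on ITD613 was not repeated.

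Complex III, the cytochrome bc1 complex, had the narrowest median range, and 1 of its 8 genes varied by over 0.5. Uqcrc1, a core protein, read 8.19, 8.16, 8.59, 8.18 and 8.03. It was 0.45 above the mean of the other 4 on ITD602, and it has 1 probe set. Uqcrc2, the other core protein, and Uqcrfs1, the Rieske iron-sulphur protein, read 9.75 to 9.90 and 8.85 to 8.99. The small subunits Uqcr11, Uqcrh and Uqcr10 read 8.82, 8.86, 8.88, 8.73 and 9.01, then 9.91, 9.96, 10.04, 9.88 and 10.10, then 9.08, 9.07, 9.15, 8.98 and 9.13. Uqcrq, which lies beside cytochrome b, read 8.43, 8.57, 8.67, 8.49 and 8.40. Uqcr11, Uqcrh and Uqcr10 were lowest on ITD611 with the probe sets used, and Uqcrq was lowest on ITD613. The second probe set of Uqcrh was instead lowest on ITD602 (-0.22), and that of Uqcr10 on ITD78 (-0.12). Both still lay below the mean of the other 4 on ITD611 (-0.14 and -0.08), and Uqcr11 has 1 probe set. Complex III had a negative median on ITD613 (-0.06, and -0.14 with centred arrays).

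Complex IV, cytochrome c oxidase, held the widest single difference of all subunit genes. Cox7c, a small subunit, read 5.69, 5.69, 5.64, 5.58 and 4.78, so the ITD613 array was 0.87 below the mean of the other 4. That mean was 5.65 with an SD of 0.05, which is over different constructs and does not measure the spread of replicates. The other probe set of Cox7c was also lowest on ITD613, at 3.47, 3.77, 3.44, 3.58 and 2.12, mostly in the range of shared values. Both probe sets of Cox7c were weak: the one used had a mean of 5.48. The means of the other common complex IV subunits ran from 9.16 (Cox7a2l) to 11.71 (Cox6a1). Among the other complex IV subunits common to all tissues the lowest difference on ITD613 was that of Cox5a (-0.23). Cox5a, a subunit on the matrix side, read 11.23, 11.34, 11.01, 11.25 and 10.98. Cox5b, a zinc-binding subunit, read 11.16, 11.04, 11.12, 11.04 and 11.34. Cox7a2l, which helps to join complexes III and IV into supercomplexes, read 9.20, 9.09, 9.15, 9.02 and 9.34. Cox5b and Cox7a2l were highest on ITD613, by 0.18 and 0.13 over the next array. The complex IV median on ITD613 was 0.13, the largest of any complex and array, but it was 0.06 with centred arrays and 0.02 with low values raised to 3.74.

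Several complex IV subunits have a form common to most tissues and a form of muscle, testis or lung. The common forms were well measured on all 5 arrays: Cox6a1 at 11.61 to 11.86, Cox6b1 at 10.95 to 11.16, Cox7a2 at 10.95 to 11.23, Cox8a at 9.93 to 10.24 and Cox4i1, which the symbol rule does not take in, at 10.33 to 10.52. The muscle forms Cox6a2 and Cox7a1 read 3.21 to 3.47 and 0.96 to 1.22, and Cox8b, also of muscle and heart, 2.35 to 2.89. The testis forms Cox6b2 and Cox8c read 1.22 to 1.70 and 3.90 to 4.36, and Cox4i2, of lung, 3.38 to 3.57. Of these tissue-limited forms only Cox8c lay above the range of shared values, and it did so on every array. Cox6b2, Cox7a1 and the testis gene Cox7b2 (0.61 to 0.71) were the other 3 members below the filter. The order of common and tissue-limited forms cannot be read from levels of different probe sets, but none of the 5 arrays stood 0.5 or more from the mean of the other 4 in any of these forms.

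Complex V, the ATP synthase, had no gene with a range of 0.5. Its F1 head makes the ATP: Atp5e, the epsilon subunit of the stalk, read 9.71, 9.56, 9.54, 9.48 and 9.97, the widest range of the complex (0.48). Atp5d, the delta subunit, read 9.84, 9.71, 10.05, 9.79 and 9.97, and Atp5c1, the rotating gamma subunit, read 10.46, 10.60, 10.75, 10.53 and 10.57. Atp5a1 and Atp5b, the alpha and catalytic beta subunits, were lowest on ITD613, at 10.56 and 10.25, by 0.11 and 0.08 below the next array. The head thus had members on both sides on ITD613.

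Atp5g1, one of 3 genes for the same c subunit of the membrane rotor, read 9.48, 9.58, 9.71, 9.46 and 9.37. The other 2 genes of the c subunit, Atp5g2 and Atp5g3, had ranges of 0.11 and 0.18. The peripheral stalk, which keeps the head from turning, was represented by Atp5h, Atp5pb, Atp5j and Atp5o. Atp5h read 10.86, 10.82, 10.75, 10.75 and 11.04, and all 4 stalk genes lay above the mean of the other arrays on ITD613, by 0.02 to 0.24. With centred arrays 3 of the 4 did so, Atp5h by 0.17, and Atp5pb lay at -0.06. The second probe set of Atp5pb lay at -0.20 on ITD613, against 0.02 for the one used. The membrane subunit Atp5j2, with Cox6a1 and Uqcrb among the 3 brightest members, had the narrowest range of all (0.08), at 11.32 to 11.40. Brightness depends on the probes and is not a measure of abundance between genes.

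**Figure D3:**
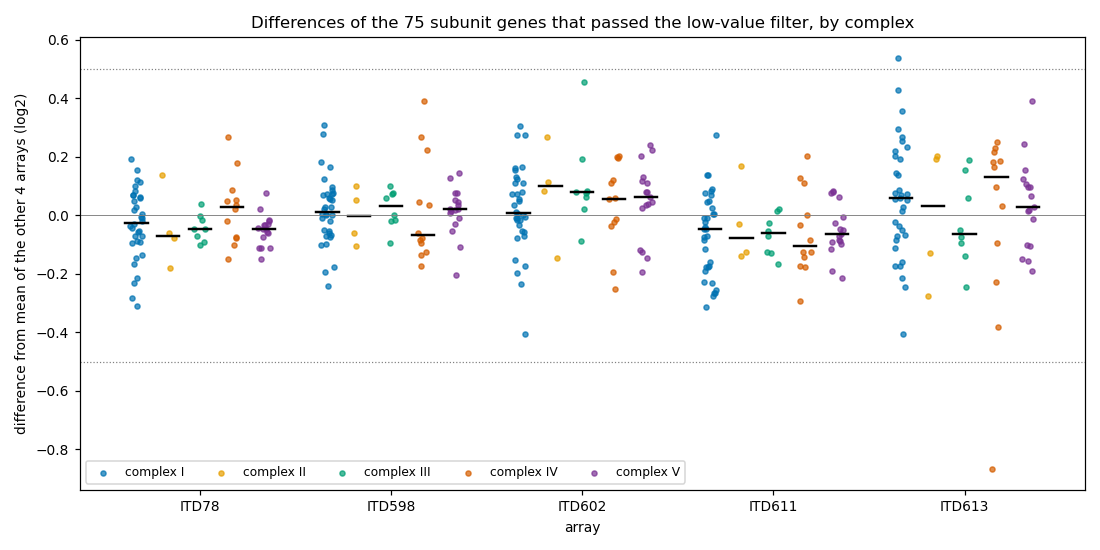
Difference of each array from the mean of the other 4 (log2) for the 75 subunit genes that passed the filter, by array and complex; each point is a gene, black bars are medians and dotted lines mark 0.5 and -0.5. All points but Cox7c and Ndufb1 on ITD613 lie between the dotted lines, and the medians lie between -0.10 and 0.13.

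Counted over all complexes, 1 of 75 subunit genes lay at least 0.5 above the mean of the other 4 on ITD613 (Ndufb1), against 12.6% of all genes, and 1 lay at least 0.5 below (Cox7c), against 9.51%. On the other 4 arrays 0 of 75 did so in either direction. There the shares of all genes above and below were 1.89% and 2.73% on ITD78, 1.8% and 1.07% on ITD598, 4.39% and 4.06% on ITD602, and 1.5% and 2.53% on ITD611, so the background was itself low on these arrays. ITD613 had the most genes past this size.

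The differences of the subunit genes between arrays were small on balance. Their medians were -0.04 on ITD78, 0.02 on ITD598, 0.06 on ITD602, -0.06 on ITD611 and 0.06 on ITD613, beside -0.03, -0.01, 0.03, -0.02 and 0.01 for all genes. Those of ITD78 and ITD613 changed sign with centred arrays (0.01 and -0.02), so neither direction is settled. The ITD602 median stayed above 0 (0.03) and the ITD611 median below it (-0.03). A value was lowest of the 5 on ITD611 in 26 of 75 subunit genes (34.7%), against 17.8% of all genes, and with centred arrays in 20 (26.7%) against 13%. On ITD78 17 were lowest (22.7%), against 17.5% of all genes, but with centred arrays 5 were (6.67%), against 11.3%, so this share changed sides of its background. ITD613 was highest in 29 (38.7%), against 35.7% of all genes, and lowest in 16, against 29.4%. With centred arrays ITD613 was highest in 22, against 28.9%, and lowest in 29, against 40.2%. ITD602 was highest in 23, against 29.5%, and lowest in 8, against 17.3%. ITD598 was highest in 11, against 10.7%, and lowest in 6, against 12.4%. The remaining counts of highest values were 3 on ITD78, against 11.3%, and 4 on ITD611, against 8.33%. These counts depend on the arrays they are set against: without ITD613, ITD78 was highest in 15, without ITD602, ITD598 was highest in 23, and without ITD611, ITD598 was lowest in 18 and ITD602 in 13. The share of subunit genes lowest on ITD611 stood furthest above its background, with a median difference of -0.06, and this was not tested.

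In pairs of arrays, which share arrays with each other, the spread of the subunit genes was also narrower than that of all genes. The SD of the log2 differences over the 75 genes was 0.10 between ITD598 and ITD611, against 0.18 over all genes. It was 0.25 between ITD611 and ITD613, against 0.58, and 0.24 between ITD602 and ITD613, against 0.63. The median of ITD611 minus ITD602 over the subunit genes was -0.10, and -0.05 with centred arrays.

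Of the 75 genes, 40 had a second probe set with a mean of at least 3.74, which is a check within an array. The 2 highest probe sets had the same sign of difference in 35 of 40 genes on ITD613, against 76.1% of all genes with such a pair, in 31 on ITD598, against 68.8%, and in 30 on ITD611, against 71.7%. It was the same in 26 on ITD78, against 65.4%, and in 24 on ITD602, against 67.4%. On ITD613 both lay at least 0.2 above the mean of the other 4 in 6 genes (Atp5h, Cox5b, Cox7a2l, Ndufa3, Ndufb9 and Ndufv1), against 18.2% of 3042 genes with such a pair. Both lay at least 0.2 below in 2 (Cox5a and Sdhd), against 19.6%. Ndufa3 had differences of 0.36 and 0.38 on ITD613 and of -0.31 and -0.34 on ITD611. Cox5b had 0.25 and 0.28 on ITD613. These genes were chosen by the agreement of their probe sets, their shares lie below those of all genes, and probe sets of the same RNA are no replicate of the culture.

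The 2 probe sets moved apart by at least 0.3 on ITD613 in 2 of 40 subunit genes, against 27.5% of all genes with 2 such probe sets. On ITD602 this was so in 9, against 25.7%, a share near the background, on ITD78 in 2, against 14%, on ITD598 in 1, against 9.27%, and on ITD611 in 1, against 10.9%. The 9 genes on ITD602, chosen by these values, were Atp5o, Atp5pb, Cox5a, Cox6c, Ndufb6, Ndufc2, Ndufs4, Sdhd and Uqcrh. The highest probe set of Cox5a was 0.19 lower and the second 0.30 higher. For Ndufb6 these differences were -0.40 and 0.11. For Cox6c they were 0.12 and -0.52, and for Atp5o 0.08 and -0.63. ITD602 differences of these genes therefore depend on the probe set, the Cox5a and Ndufb6 values above included. Neither here nor for the signs above were the shares of all genes matched for level.

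**Figure D4:**
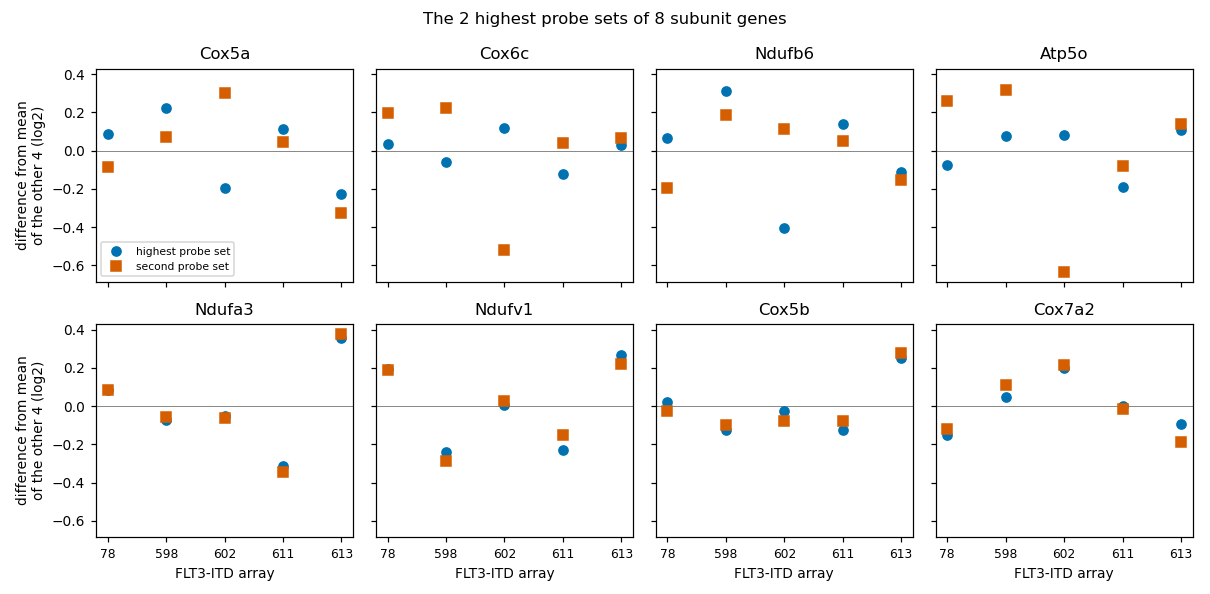
Differences from the mean of the other 4 arrays (log2) for the highest (circles) and second highest (squares) probe set of 8 subunit genes; the number under each array is that of its construct. The probe sets part on ITD602 in the upper row, as for Atp5o (0.08 and -0.63), and lie close together in the lower row, as for Ndufa3 on ITD613 (0.36 and 0.38).

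Of 6 lists of other genes of the pathway, written with earlier results known, 5 had a wider median range than the subunit genes (0.26), from 0.36 to 0.42, and the 5 subunits and carriers that the symbol rule leaves out had a narrower one (0.19). Counts past 0.5 on ITD613 stand beside 12.6% of all genes higher and 9.51% lower there. The 12 measured TCA cycle genes had a median range of 0.40 and a median of -0.25 on ITD613 (-0.32 with centred arrays), where 2 were at least 0.5 lower and 0 higher. These were Suclg1 and Suclg2, subunits of succinyl-CoA ligase, at 8.12, 8.39, 8.46, 8.37 and 7.82 and at 8.09, 8.26, 8.34, 8.22 and 7.56. Each was lowest on ITD613 and second lowest on ITD78. The 6 carriers and channels had a median of -0.26 on ITD613 (-0.33 centred), with 0 of 6 past 0.5 in either direction. Slc25a4, an ADP/ATP carrier that feeds complex V, read 8.30, 8.43, 8.46, 8.45 and 7.97, and Vdac2, an outer membrane channel, read 9.95, 10.16, 10.27, 10.20 and 9.82.

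The 76 mitochondrial ribosome genes, whose products translate the subunits encoded in mitochondrial DNA, had medians of -0.15 on ITD78 and 0.19 on ITD602 (-0.09 and 0.17 centred). On ITD613 3 were at least 0.5 higher and 3 lower. Mrpl52 read 9.92, 9.70, 9.43, 9.55 and 10.33, and Mrps35 read 6.67, 7.04, 7.33, 7.07 and 6.48. The 42 assembly factors, which build the complexes, had a median range of 0.42, and on ITD613 2 were at least 0.5 higher and 5 lower. Sco2, a copper chaperone of complex IV, read 5.79, 5.97, 6.38, 5.97 and 4.92, and Coa7, a complex IV assembly factor, 5.34, 5.89, 5.98, 5.89 and 4.83. Both were lowest on ITD613.

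Of 16 regulators of mitochondrial genes, 1 was at least 0.5 higher on ITD613 and 0 lower. This was Myc, at 7.47, 7.41, 7.37, 7.44 and 8.34, and Mterf3, which restrains mitochondrial transcription, read 6.86, 7.06, 6.79, 6.83 and 7.32. The coactivator Ppargc1a stayed below the filter, at 1.05 to 1.49. Of the 5 subunits and carriers that the symbol rule leaves out, 0 passed 0.5 on any array. Cyc1, the cytochrome c1 of complex III, read 9.38, 9.48, 9.77, 9.54 and 9.29, highest on ITD602 and lowest on ITD613 as Uqcrc1 was. Cycs, cytochrome c itself, read 11.03, 11.15, 10.78, 11.10 and 11.01. On ITD613 the subunit genes thus had a median near 0 while the TCA cycle and carrier lists had medians near -0.25, and this difference between lists was not tested. All 4 erythroid markers were highest on the same array. Of the 8 myeloid markers that passed the filter, 6 were lowest there and 1 was highest. The part of these markers in the result was not tested.

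**Figure D5:**
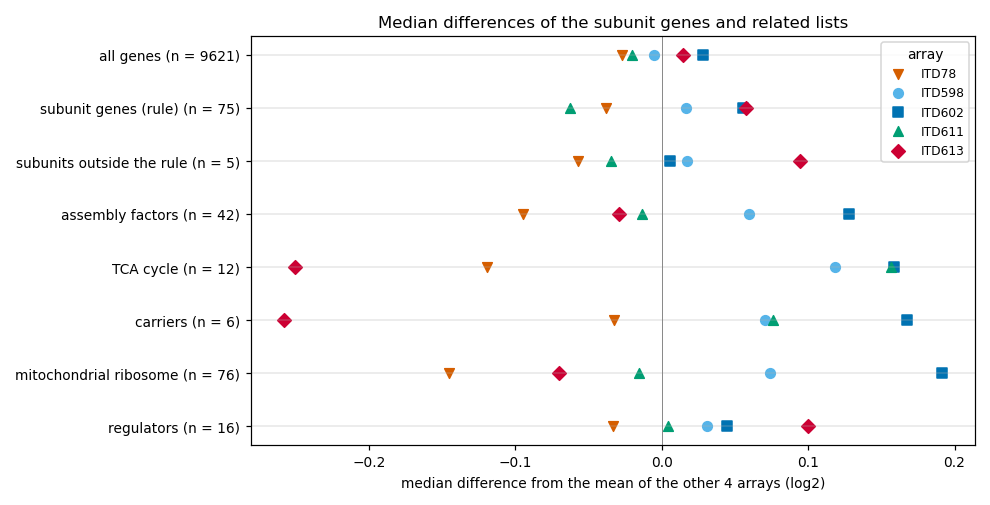
Median difference from the mean of the other 4 arrays (log2) for all genes passing the filter, the 75 subunit genes and 6 related lists, 1 symbol per array; n is the number of genes. The ITD613 symbol lies at 0.06 for the subunit genes and at -0.25 and -0.26 for the TCA cycle and carrier lists.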

How the data were processed

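The authors' deposited log2 values, 1 per probe set, come from RMA, which corrects background, normalizes and sums up probes, per the submitters' processing notes; version and chip definition are not given in the sources used here, and the values gave the log base. Of 45101 probe sets, 34945 with 1 gene symbol in the platform annotation were used; control probe sets and 932 with several symbols were left out, and unlisted ones stayed unnamed. 0 columns lacked a sample. The subunit genes and lists were chosen with earlier results of these data known.

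Differences from the mean of the other 4 arrays, medians, ranges and counts past fixed sizes were computed in Python 3.11.15 with pandas 2.3.3 and numpy 2.4.6. There are 0 residual degrees of freedom, so nothing was tested. The rules were checked on simulated data with equal noise on every array, set from ITD598 and ITD611. That pair had the smallest SD over all genes (0.18, against 0.58 between ITD611 and ITD613). The check therefore does not cover the wider spread seen with ITD613. Named were, per complex, up to 5 members with the widest range, all of complex II, tissue-specific isoform pairs, the 3 brightest members and up to 2 genes per related list; others are said to be chosen after their values were seen or stand for a summary of the remaining members. RMA draws the arrays to a common distribution, so a shift common to all genes cannot be seen. Having 1 array per construct limits the precision. Alternatives were another probe set rule, other filters, raised low values, centred arrays, the median as reference and each array left out.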

Additional observations from a re-analysis of the deposited data

How the results depend on the processing

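In 12 alternatives per array the medians of the subunit genes by array moved by at most 0.07 (log2), and 353 of 355 medians, by complex and pair included, moved by less than 0.1. Most medians are themselves smaller than that, and 24 of the 355 changed sign. Of 60 medians over all subunit genes, 4 changed sign: with centred arrays those of ITD78 (0.01) and ITD613 (-0.02), and that of ITD598 without the ITD78 array (-0.01) and over members whose 2 highest probe sets agree (-0.01; chosen after seeing the data). The number of subunit genes at least 0.5 from the mean of the other 4 was 1 on ITD598 when _x_at and _s_at probe sets were dropped (Cox7c, 0.62), 1 on ITD602 without the low-value filter (Ndufb4, 0.73) and 1 on ITD613 with centred arrays (Cox7c, -0.94). It was between 0 and 3 in every alternative on every array, with each array left out included. With the same probe sets dropped, Ndufa12 was 0.70 lower on ITD613, on a probe set at 2.48 to 3.44, and without the ITD78 array Ndufb2 was 0.51 lower there. The count of subunit genes with a range of at least 0.5, 8 in the main setting, was 5 with the mean of probe sets and ran from 2 to 8 with 1 array left out, the lowest without ITD613. No paired analysis was possible because each construct has 1 array. Values below 3.74 are partly shared between probe sets, which limits what Cox6a2, Cox8b, Ndufa4l2 and this probe set of Ndufa12 can show.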
